A study of Mus musculus with 12 samples.

Results

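The genes described here encode the transcription factors of the AP-1 group, measured in mouse liver after an injection of concanavalin A. The members were the 10 genes Fos, Fosb, Fosl1, Fosl2, Jun, Junb, Jund, Atf3, Maff and Mafk, taken by symbol. This choice was made with earlier results of these data known. All 10 were found among the 23574 entries of the count tables, and all 10 passed the filter on low counts, which left 14275 genes for testing. The mice were wild type C57BL/6, and the RNA was sequenced as poly(A)-selected libraries. The sources differ on its origin: the sample labels and the extraction protocol give liver tissue, whereas the series design text speaks of hepatocyte RNA. The values are read here as those of liver tissue, and which cells contributed to them is not settled by the sources. Concanavalin A (Con A) is a lectin from jack beans that stimulates T cells and brings about a hepatitis. In this study it was given to every group, so no uninjected liver is available as a baseline here. The 4 groups of 3 libraries each were Con A 6 h (Con A, without MSC, taken at 6 h), Con A+MSC 6 h (Con A with mesenchymal stem cells, taken at 6 h), Con A 12 h (Con A, without MSC, taken at 12 h) and Con A+MSC 12 h (Con A with mesenchymal stem cells, taken at 12 h). The labels used here do not give the source, dose or route of the MSC, the age or sex of the mice, or the time of day. Nothing in them states that replicates come from different mice, so the p-values reflect the spread among these libraries alone, which may in part be technical.

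AP-1 factors are basic leucine zipper proteins that bind DNA as pairs. The Fos proteins (Fos, Fosb, Fosl1, Fosl2) do not pair with each other and need a Jun partner, whereas the Jun proteins (Jun, Junb, Jund) pair with each other, with Fos proteins and with ATF proteins. Fos-Jun pairs favour the site TGAGTCA, the TPA response element, and pairs with an ATF protein favour the cAMP response element (CRE), TGACGTCA. Atf3 is a stress-induced ATF protein that can repress its targets, and the small MAF proteins Maff and Mafk lack an activation domain and act with NRF2 or BACH1 at antioxidant response elements. Most of these genes are immediate early genes: mitogen-activated protein (MAP) kinases switch them on within minutes through factors already present in the cell, and their mRNAs are short lived. In the liver they are known for rapid induction after partial resection, cytokines and toxic injury.

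The promoter sequences of the 10 genes were read for shared elements, as a description. Whether such elements bear on the changes in these livers was not tested. RefSeq promoter windows (assembly GRCm38.p6) were found for 9 of the 10 members, Fosl1 being the one without an entry. The tables were aligned to GRCm39, so these coordinates are those of another build. The 6 windows shown are those that hold an element of the CRE type or a related Jun-type site. Each covers the 130 bases before the RefSeq transcription start, 5′ to 3′ on the gene's own strand, with CRE-type, Jun-type and TATA matches in capitals.
Fos (chr12:85473760-85473889, plus strand): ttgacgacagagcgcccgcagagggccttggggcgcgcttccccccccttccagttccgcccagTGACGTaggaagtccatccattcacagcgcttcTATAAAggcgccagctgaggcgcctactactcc
Fosb (chr7:19310046-19310175, minus strand): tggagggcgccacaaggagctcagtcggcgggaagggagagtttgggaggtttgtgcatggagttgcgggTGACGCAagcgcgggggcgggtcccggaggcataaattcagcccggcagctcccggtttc
Jun (chr4:95052223-95052352, minus strand): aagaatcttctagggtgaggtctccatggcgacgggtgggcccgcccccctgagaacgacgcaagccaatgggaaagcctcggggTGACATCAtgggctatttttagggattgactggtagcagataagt
Atf3 (chr1:191183334-191183463, minus strand): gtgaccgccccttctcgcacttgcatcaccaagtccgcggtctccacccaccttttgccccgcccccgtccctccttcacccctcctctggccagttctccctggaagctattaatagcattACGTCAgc
Maff, RefSeq start 2 (chr15:79347390-79347519, plus strand): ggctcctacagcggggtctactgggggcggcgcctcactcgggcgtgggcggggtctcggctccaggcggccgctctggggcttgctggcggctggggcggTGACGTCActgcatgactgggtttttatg
Maff, RefSeq start 3 (chr15:79348272-79348401, plus strand): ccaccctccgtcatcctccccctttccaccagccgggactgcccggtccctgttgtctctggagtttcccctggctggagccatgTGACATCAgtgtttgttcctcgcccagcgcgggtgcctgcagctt

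In the Fos window the capitals mark a CRE core, TGACGT, at positions -66 to -61 from the start, and a TATA box, TATAAA, at -33 to -28. Fosb carried TGACGCA at -60 to -54. Jun and Maff start 3 both carried TGACATCA, in both cases at -45 to -38. Maff start 2 carried the full palindrome TGACGTCA at -29 to -22, and Atf3 carried ACGTCA, the CRE core read on the other strand, at -8 to -3. The last 6 bases of the Fosb window and the last 7 of the Atf3 window lie within an exon of the GENCODE M21 annotation.

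Motifs were counted on both strands of the 250 bases before each start. TGACGTCA was held by 1.55% of the 32851 RefSeq promoters, TGACGCA by 1.75%, TGACATCA by 2.93%, and the core TGACGT, which overlaps the full CRE and was chosen after the sequences were seen, by 6.47%. Of the 11 windows of the 9 members, 1 held TGACGTCA, 1 held TGACGCA, 2 held TGACATCA and 3 held the core. The TPA response element TGAGTCA was in none of the 11 windows and in 4.46% of all promoters. The CArG box, the site of serum response factor, was in none of them and in 1.47% of all. Bases further upstream were not read, so these absences hold for the 250-base windows alone and not for the whole promoters. The GC box GGGCGG was in 8 of the 11 windows and in 32.7% of all promoters, TATAAA in 1 (12.4% of all), CCAAT in 2 (33.8% of all) and the E box CACGTG in 2 (6.02% of all). These matches describe the letters of the windows and not binding. Windows of Fosl2, Junb, Jund and Mafk and the first Maff window held none of the 4 CRE and Jun-type sequences. All 250 bases of the Fosl2 window, whose GC box is among the 8, are exon bases in GENCODE M21. Its RefSeq start lies 671 bases from the GENCODE M21 start, so this window may not be that of the promoter in use. The same limit holds for other windows, among them 3 of those printed above. The distance is 34706 bases for Atf3, 899 and 1781 for Maff starts 2 and 3, and 1210 for Jund. The 250-base windows of Maff start 3 and Mafk hold 95 and 23 exon bases.

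The libraries held 29.7 to 36.1 (in 1e6) counts. CPM are counts per 1e6 counts after scaling by TMM factors, and 3 counts, the upper limit that a count of 0 allows, equalled 0.0657 to 0.119 CPM. The tissue label was checked against marker genes: all 10 hepatocyte markers were detected in every group, with a summed level of 33040 to 119600 CPM over the libraries, and no marker of the other listed cell types found in the tables was at 0 in a whole group. The share of counts on mitochondrially encoded genes averaged 9.79 ± 2.01% (Con A 6 h; mean ± SD over 3 libraries), 11.5 ± 0.567% (Con A+MSC 6 h) and 7.74 ± 1.49% (Con A+MSC 12 h). Among the Con A 12 h libraries it spread widely, from 5.59% in replicate 1 over 17.35% in replicate 2 to 24.9% in replicate 3. MSC results at 12 h are therefore also given for replicate 1 alone and with this share as a covariate.

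At 6 h the 10 AP-1 genes together made up 1616 to 2238 CPM in the Con A libraries and 1336 to 1458 CPM in the Con A+MSC libraries. At 12 h the sums were 398.3 to 485.9 CPM and 208.8 to 232.7 CPM. Each of the 10 genes fell from 6 h to 12 h, both without and with MSC, where 24.8% and 20.2% of all tested genes fell. With MSC at 12 h, 3 of them (Jun, Jund and Maff) were also lower, where 1.79% of all tested genes were (edgeR, adjusted p under 0.05 in each case). In bulk tissue, fewer cells of a type and less RNA per cell cannot be told apart, and without the time of day in the labels, hours after injection and clock time cannot be told apart either.

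**Figure D1:**
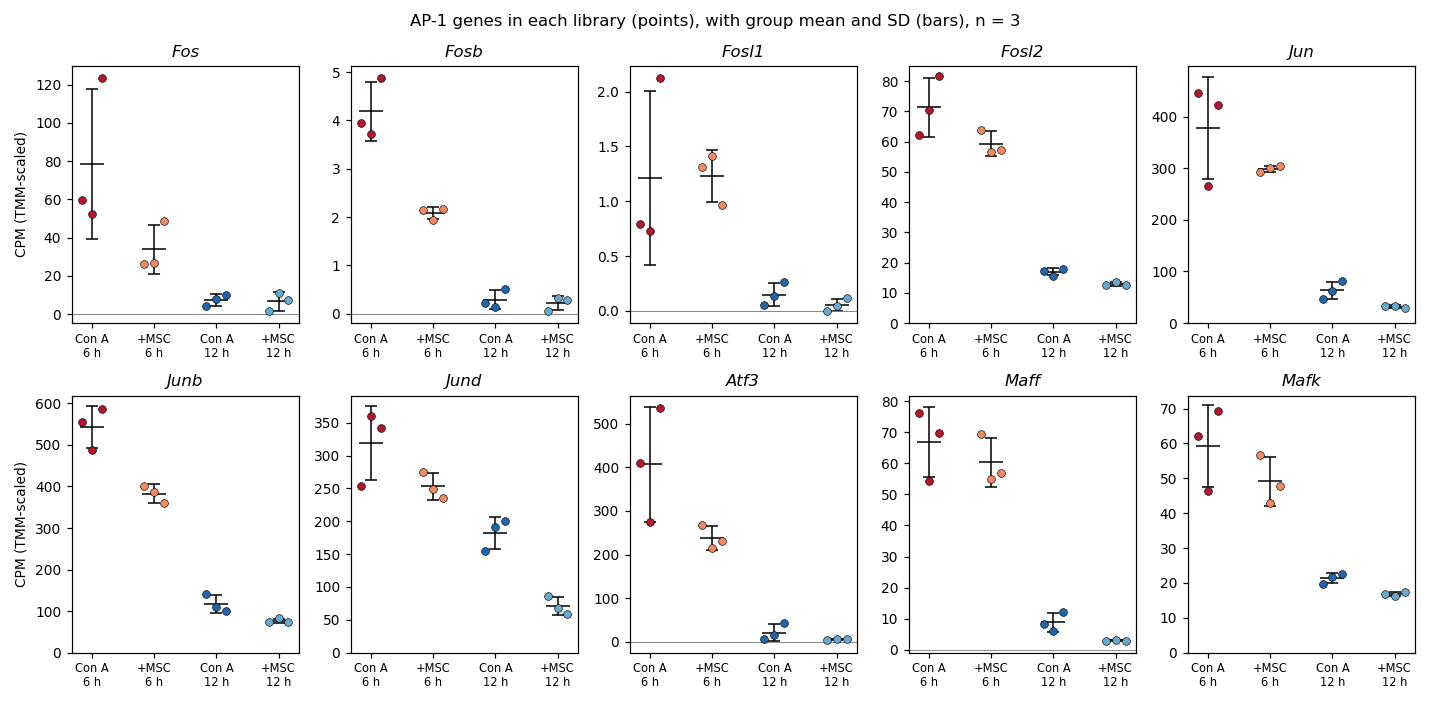
Level of each AP-1 gene in CPM (TMM-scaled, linear axes that differ between panels) in the 12 libraries; points are libraries and bars the group mean and SD (n = 3). In each panel all 6 h libraries lie above all 12 h libraries of the same treatment. The Con A+MSC 12 h points of Fosl2, Jun, Junb, Jund, Maff and Mafk lie below all Con A 12 h points, a pattern shown by 13.1% of all genes.

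To compare levels between genes, CPM were divided by exon length (GENCODE M21, in kb). At 6 h in Con A livers Junb stood highest at 236 ± 21.7 CPM per kb (mean ± SD, n = 3). Jund followed at 191 ± 34.0 CPM per kb, Atf3 at 189 ± 61.0 and Jun at 119 ± 30.8, and each of these 4 overlapped its next neighbour in the order. Fos was apart from them at 33.4 ± 16.7 CPM per kb, overlapping Maff at 25.8 ± 4.33. Mafk had 15.2 ± 3.01 CPM per kb and Fosl2 had 7.38 ± 1.009, each apart from its higher neighbour. Fosb at 0.671 ± 0.0988 CPM per kb and Fosl1 at 0.597 ± 0.390 overlapped each other at the bottom. With MSC at 6 h the order kept Junb, Jund, Atf3 and Jun at the top, with 166 ± 9.47, 152 ± 12.3, 111 ± 12.7 and 93.7 ± 1.87 CPM per kb.

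With GENCODE M21 lengths the order at 12 h was different at the top. In Con A livers Jund, the Jun protein known for steady expression in resting cells, stood first at 109 ± 14.4 CPM per kb, apart from Junb at 50.8 ± 9.41, which in turn was apart from Jun at 19.9 ± 5.26. Atf3 had 9.65 ± 8.92 CPM per kb, and its 3 libraries reached from below Mafk (5.47 ± 0.375) to the range of Jun. In Con A+MSC livers Jund at 42.3 ± 8.37 and Junb at 33.5 ± 2.096 CPM per kb overlapped. Mafk stood above Maff at 12 h in both treatments, the reverse of their order at 6 h. With MSC they had 4.32 ± 0.153 and 1.16 ± 0.0720 CPM per kb, and without MSC Maff had 3.385 ± 1.231, its range apart from that of Mafk. The place of Jund depends on its gene model: RefSeq starts the gene 1210 bases upstream of GENCODE M21. The RefSeq length used here is the span of its entry, 2878 bases, whereas the other members keep their GENCODE M21 exon bases. With the RefSeq length Jund had 111 ± 19.7 CPM per kb at 6 h and 63.2 ± 8.35 at 12 h without MSC. Its range in Con A 12 h, 53.7 to 69.4, then overlapped that of Junb, 43.3 to 61.4 CPM per kb. In Con A+MSC 12 h it had 24.5 ± 4.85 CPM per kb with that length, and its range of 20.3 to 29.8 lay wholly below that of Junb, 32.05 to 35.9 CPM per kb. With the RefSeq length Junb therefore stood first in that group, as it did at 6 h.

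Some members share exon bases with a gene on the opposite strand in GENCODE M21, and the labels do not say whether the counting used strand. The share was 57.2% of exon bases for Fosl1 (with Ccdc85b), 52.6% for Jund (with Gm11175), 7.52% for Junb (with Prdx2), 7.28% for Jun (with Junos) and 4.33% for Mafk (with Tmem184a). Reads from these stretches cannot be assigned to one partner without strand, so the values of Fosl1 and Jund are the least certain. Without MSC, Ccdc85b had 8.58 ± 2.90 CPM at 6 h and 7.70 ± 2.45 at 12 h, above every Fosl1 library at those times. No values for Gm11175 and Junos were used here.

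The first question was how AP-1 expression differed between 6 h and 12 h of Con A injury. Without MSC all 10 members fell, where 24.8% of all tested genes fell in the same comparison (edgeR quasi-likelihood test, Benjamini-Hochberg adjusted p under 0.05). With MSC all 10 fell as well, where 20.2% of all genes fell. The median log2 change of the members was -2.75 without MSC and -2.76 with MSC, against 0.02 and 0.06 over all genes. For each of the 10 genes the 6 h and 12 h libraries did not overlap in either treatment, a pattern seen in the same direction for 27.3% and 28% of all genes. Both counts of 10 came out in all alternatives run but one, in which Jund was lost without MSC.

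Fos, the partner that gives Fos-Jun pairs their high DNA affinity, had 59.7, 52.5 and 124 CPM in the 3 Con A 6 h libraries and 4.29, 7.81 and 10.1 CPM at 12 h. In Con A+MSC livers it had 26.3, 27.0 and 48.8 CPM at 6 h and 1.46, 11.1 and 7.52 CPM at 12 h. One library in each 6 h group, replicate 3, stood well above the other two, and the 12 h libraries with MSC differed 7.58-fold among themselves. The change over time was -3.41 ± 0.61 (log2 ± SE) without MSC (edgeR adjusted p = 0.000708) and -2.34 ± 0.58 with MSC (edgeR adjusted p = 0.00706).

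Fosb, a close relative of Fos, was scarce: 3.94, 3.73 and 4.89 CPM in Con A 6 h and 2.15, 1.94 and 2.18 CPM in Con A+MSC 6 h. At 12 h its counts were 4 to 14 per library without MSC and 2 to 15 with MSC, near the limit of 3 counts. Its change was -3.85 ± 0.53 on the log2 scale without MSC (edgeR adjusted p = 0.000127) and -3.17 ± 0.52 with MSC (edgeR adjusted p = 0.000517). Fosl1 (Fra-1) was scarcer still, at 0.788, 0.726 and 2.13 CPM in Con A 6 h and 1.31, 1.41 and 0.964 CPM in Con A+MSC 6 h. At 12 h it had 2 to 7 counts per library without MSC and 0 to 5 with MSC. Its fall, -3.07 ± 0.74 without MSC and -4.42 ± 0.80 with MSC (edgeR adjusted p = 0.00461 and 0.000971), therefore ends at the detection limit.

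Fosl2 (Fra-2), which lacks the strong activation domain of Fos, varied less within each group than Fos and Fosl1. It had 62.1, 70.6 and 81.6 CPM in Con A 6 h and 17.3, 15.6 and 17.9 CPM in Con A 12 h. With MSC the values were 64.0, 56.7 and 57.4 CPM at 6 h and 12.5, 13.6 and 12.7 CPM at 12 h. The libraries of each group lay close together, and the fall was -2.08 ± 0.14 without MSC and -2.20 ± 0.14 with MSC (edgeR adjusted p = 2.63e-06 and 1.03e-06).

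Jun, the main partner of Fos and of Atf3 and a known substrate of the kinase JNK, had 446, 266 and 422 CPM in Con A 6 h and 47.1, 62.3 and 80.6 CPM in Con A 12 h. In Con A+MSC livers it had 293, 299.5 and 305 CPM at 6 h and 33.9, 32.7 and 28.8 CPM at 12 h. The libraries with MSC were tight at both times, with a coefficient of variation of 1.99% and 8.30%, against 25.95% and 26.5% without MSC. Jun changed by -2.58 ± 0.23 on the log2 scale without MSC and by -3.23 ± 0.24 with MSC (edgeR adjusted p = 8.95e-06 and 2.14e-06).

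Junb, a weaker activator that can oppose Jun, was the most abundant member at 6 h. It had 554, 488 and 586 CPM in Con A 6 h and 141, 110 and 99.5 CPM in Con A 12 h. The Con A+MSC libraries had 402, 388 and 359 CPM at 6 h and 74.6, 82.5 and 73.8 CPM at 12 h. Libraries with MSC lay below those without at both times. The change over time was -2.21 ± 0.17 without MSC and -2.31 ± 0.17 with MSC (edgeR adjusted p = 4.98e-06 and 1.88e-06).

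Jund had 254, 361 and 342 CPM in Con A 6 h and 155, 191 and 199.8 CPM in Con A 12 h. With MSC it had 276, 249 and 235 CPM at 6 h and 85.9, 67.3 and 58.5 CPM at 12 h. Its fall without MSC was the smallest of the 10, -0.81 ± 0.19 (1.75-fold, edgeR adjusted p = 0.00377), and with MSC it was -1.84 ± 0.19 (3.59-fold, edgeR adjusted p = 2.49e-05). Scaling by total counts without mitochondrial genes, an alternative chosen after seeing the data, moved the first value to -0.47 and ended the call (edgeR adjusted p = 0.0658).

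Atf3 had the largest fall. It went from 410, 274 and 537 CPM in Con A 6 h to 5.59, 14.4 and 42.4 CPM in Con A 12 h. With MSC it went from 268, 215 and 231 CPM to 3.28, 5.59 and 6.69 CPM. The 3 Con A 12 h libraries differed 7.58-fold, more than those of the other 9 members in that group. The change was -4.30 ± 0.60 without MSC (19.6-fold, edgeR adjusted p = 0.000139) and -5.52 ± 0.64 with MSC (45.8-fold, edgeR adjusted p = 4.88e-05).

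The small MAF genes fell to different extents. Maff had 76.4, 54.4 and 69.7 CPM in Con A 6 h and 8.27, 5.87 and 12.2 CPM in Con A 12 h, and with MSC 69.5, 54.8 and 56.8 CPM at 6 h and 2.87, 3.22 and 2.94 CPM at 12 h. Its change was -2.93 ± 0.24 on the log2 scale without MSC and -4.32 ± 0.26 with MSC (edgeR adjusted p = 6.13e-06 and 7.96e-07). Mafk had 62.0, 46.4 and 69.4 CPM in Con A 6 h and 19.7, 21.7 and 22.6 CPM in Con A 12 h, and with MSC 56.7, 42.9 and 47.8 CPM at 6 h and 16.7, 16.3 and 17.5 CPM at 12 h. Its fall was -1.47 ± 0.17 without MSC and -1.54 ± 0.17 with MSC (edgeR adjusted p = 3.53e-05 and 3.08e-05). The 2 time comparisons share no library, but each shares its 12 h and 6 h groups with the MSC comparisons below.

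**Figure D2:**
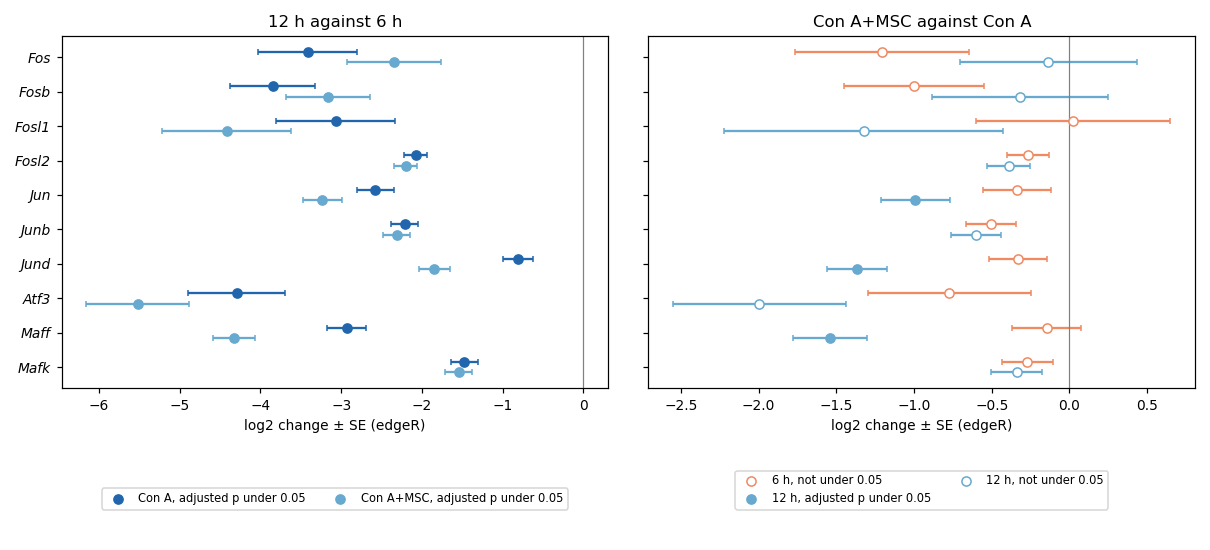
Log2 change ± SE of each AP-1 gene from the edgeR fit, 12 h against 6 h (left) and Con A+MSC against Con A (right); filled points have an adjusted p under 0.05. All 20 points on the left are filled and lie between -5.52 and -0.81, while on the right the filled points are Jun, Jund and Maff at 12 h.

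Markers of several cell types also differed between the times, where 24.8% of all tested genes fell without MSC and 20.2% with MSC. Hepatocyte markers fell for 9 of 10 genes without MSC and 8 of 10 with MSC, erythroid markers for 5 of 5 in both, and neutrophil markers for 9 and 7 of 10. Kupffer cell markers fell for 6 of 10 without MSC and 2 of 10 with MSC, those of sinusoidal endothelium for 6 and 1, and those of stellate cells for 6 and 3. With MSC the counts that fell for Kupffer cells and endothelium were at or below the share over all genes, and that for stellate cells was near it. Markers of sinusoidal endothelium and stellate cells also rose, for 1 of 10 each without MSC and 3 and 4 of 10 with MSC. Of all tested genes 24.4% rose without MSC and 20.6% with MSC. With MSC 2 of 4 B cell markers rose and none fell, and of 5 cholangiocyte markers 1 rose and 1 fell. Without MSC no marker of these 2 lists passed in either direction. Of 8 tested T and NK cell markers 1 fell without MSC and none with MSC, below the shares over all genes, and none rose. Summed neutrophil markers went from 137 to 225 CPM in Con A 6 h libraries to 30.3 to 50.2 CPM in Con A 12 h. Their part in the fall of the AP-1 genes was not tested. Another choice of scaling matters for the size of these falls: with total counts in place of TMM factors the median of all genes shifted to 0.28 without MSC and 0.59 with MSC, and the members' medians were -2.51 and -2.23 on that scale. The fit with total counts called 2354 genes lower and 4301 higher without MSC, in place of 3540 and 3479, and 1228 lower and 5780 higher with MSC, in place of 2878 and 2938.

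The make-up of the Jun family changed with time. Jund made up 35.2 ± 6.85% of the CPM per kb of the 3 Jun genes at 6 h without MSC, and 60.5 ± 4.86% at 12 h (mean ± SD, n = 3). Per library the shares were 28.6%, 42.3% and 34.6% at 6 h and 54.9%, 63.0% and 63.6% at 12 h, without overlap. With MSC the shares were 36.8 ± 1.27% at 6 h and 49.1 ± 4.68% at 12 h. Jun went from 21.6 ± 5.02% to 10.96 ± 2.34% without MSC and from 22.8 ± 1.53% to 11.7 ± 0.365% with MSC. Junb went from 43.2 ± 1.86% to 28.5 ± 6.97% without MSC, while with MSC it had 40.4 ± 0.592% and 39.3 ± 4.32%. With the longer RefSeq gene model the Jund shares were 24.0% and 47.1% without MSC and 25.3% and 35.9% with MSC, so their level depends on the length but the groups stayed apart in time. These shares are a description and were not tested.

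**Figure D3:**
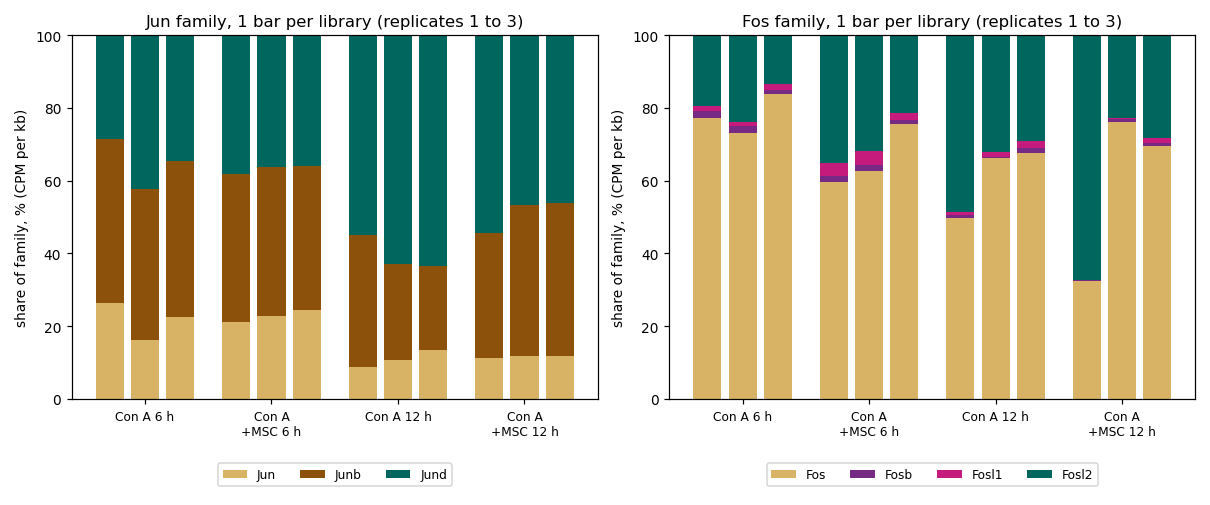
Share of each gene in the summed CPM per kb of the Jun family (left) and the Fos family (right), 1 stacked bar per library from 0 to 100%. Jund takes 28.6 to 42.3% of the Jun family in Con A 6 h and 54.9 to 63.6% in Con A 12 h; the Fos family is made up almost wholly of Fos and Fosl2, with shares that vary widely in Con A+MSC 12 h.

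Within the Fos family, Fos and Fosl2 together held nearly all of the CPM per kb. The share of Fos was 78.0 ± 5.35% at 6 h and 61.1 ± 9.95% at 12 h without MSC, and 65.8 ± 8.47% at 6 h with MSC. In Con A+MSC 12 h it reached from 32.4% to 76.1%, so no common share can be given for that group. Fosb and Fosl1 each had 3.79% or less in every library.

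The next question was whether AP-1 expression differed with MSC at 12 h. Jun, Jund and Maff fell with MSC, and the other 7 members did not pass the test, where 1.79% of all tested genes fell (edgeR, adjusted p under 0.05). All 10 log2 changes were negative, with a median of -0.80 against 0.00 over all genes. For 6 members (Fosl2, Jun, Junb, Jund, Maff and Mafk) all libraries with MSC lay below all without, a pattern shown by 13.1% of all genes. The count of 3 was 5 with the DESeq2 Wald test, which added Junb and Atf3, 1 (Jund) when only the groups compared entered the fit, and 1 (Jund) without Con A+MSC 12 h replicate 3. Total count scaling kept the 3 calls while the median of all genes moved to 0.26 and the calls among all genes went from 255 lower and 327 higher to 95 and 734.

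Jund fell by 1.37 ± 0.19 on the log2 scale (2.58-fold, edgeR adjusted p = 0.00668), from 155 to 199.8 CPM without MSC to 58.5 to 85.9 CPM with MSC. Maff fell by 1.54 ± 0.24 (2.91-fold, edgeR adjusted p = 0.00811), from 5.87 to 12.2 CPM without MSC to a narrow range of 2.87 to 3.22 CPM with MSC. Jun fell by 0.99 ± 0.22 (1.99-fold, edgeR adjusted p = 0.0323), from 47.1 to 80.6 CPM to 28.8 to 33.9 CPM. Of the 3 calls that of Jun was the least stable: it was lost in 8 of 16 alternatives, among them leaving out Con A 12 h replicate 2 or 3 or Con A+MSC 12 h replicate 2 or 3, with adjusted p up to 0.152 in these 4. Maff was lost with only the groups compared (edgeR adjusted p = 0.0586) and without Con A+MSC 12 h replicate 3 (0.052).

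Among the members that did not pass, Junb had a log2 change of -0.60 ± 0.16 (edgeR adjusted p = 0.0555) with libraries that did not overlap. Atf3 had the largest value, -1.995 ± 0.55, but the spread of its Con A 12 h libraries was large and the groups overlapped (edgeR adjusted p = 0.0635). When Con A 12 h replicate 3, with 42.4 CPM, was left out, its value was -0.96 (edgeR adjusted p = 0.235), and without replicate 1 it was -2.46 (edgeR adjusted p = 0.012). Fosl2 at -0.39 ± 0.14 and Mafk at -0.34 ± 0.16 had small changes with tight libraries (edgeR adjusted p = 0.124 and 0.249). Fos at -0.14 ± 0.57, Fosb at -0.32 ± 0.57 and Fosl1 at -1.32 ± 0.90 overlapped between the groups (edgeR adjusted p = 0.913, 0.784 and 0.413), and the sign of each of the 3 turned under some alternatives.

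Several members followed the order of the mitochondrial share among the Con A 12 h libraries. In the order of that share, 5.59%, 17.35% and 24.9%, 6 members (Fos, Fosl1, Jun, Jund, Atf3 and Mafk) had higher levels at each step, Junb had lower ones, and Fosb, Fosl2 and Maff followed neither order. Jun had 47.1, 62.3 and 80.6 CPM in that order and Atf3 had 5.59, 14.4 and 42.4, whereas Junb had 141, 110 and 99.5 CPM. How many of all tested genes rose or fell in that order was not counted, so it may not be particular to the members. With the share as a covariate, Jund had -1.16 (edgeR adjusted p = 0.0235), Maff -1.34 (0.0438) and Junb -0.78 (0.0495), all passing, while Jun had -0.63 (0.161) and Atf3 -0.34 (0.704). The members' median was then -0.35 in place of -0.80. With replicate 1 alone standing for Con A 12 h, an alternative chosen after seeing the data in which the lone library is taken to vary like the other groups, Maff passed (-1.46, edgeR adjusted p = 0.0406). Jund (-1.14, 0.11), Jun (-0.57, 0.385) and Atf3 (-0.11, 0.947) did not, and the median was -0.33.

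**Figure D4:**
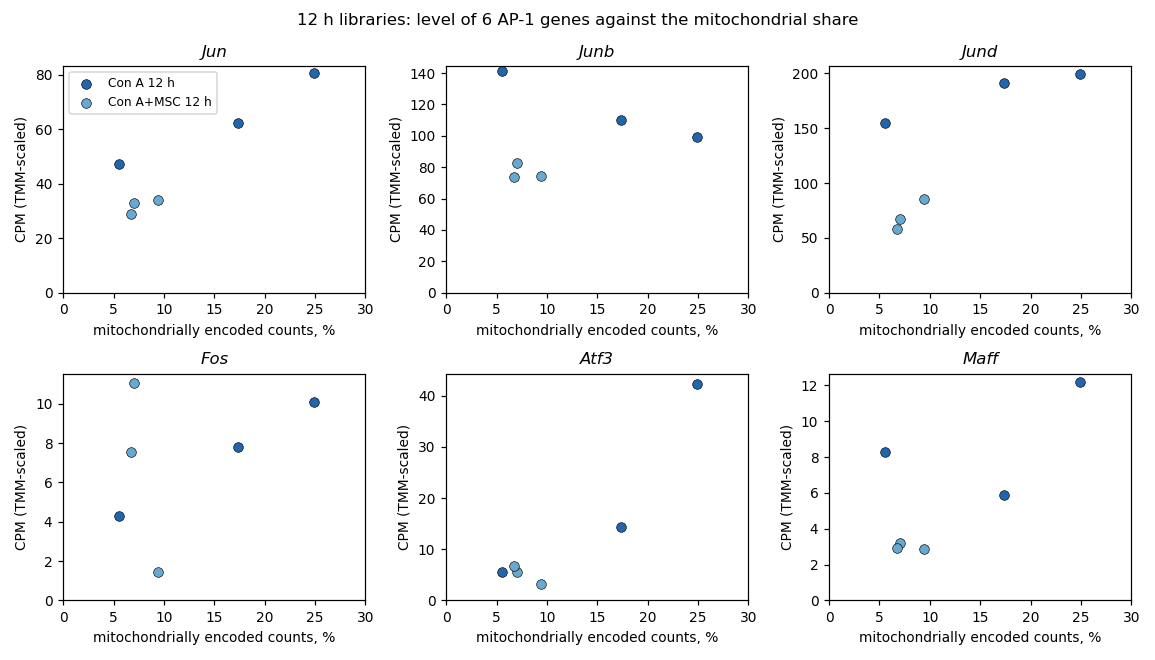
CPM (TMM-scaled) of 6 AP-1 genes in the 12 h libraries against the percent of counts on mitochondrially encoded genes; dark points are Con A 12 h and light points Con A+MSC 12 h (n = 3 each). Among the dark points Jun and Atf3 are higher and Junb lower where the share is higher, and the dark point at 5.59% lies above all light points for Jun, Junb, Jund and Maff but not for Fos or Atf3.

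Some markers of Kupffer cells, sinusoidal endothelium and stellate cells were higher with MSC at 12 h. Of these lists 4 of 10 Kupffer cell markers, 6 of 10 markers of sinusoidal endothelium and 6 of 10 stellate cell markers rose, and none of these 30 fell; 2.29% of all tested genes rose. Summed Kupffer cell markers were 12.9 to 42.0 CPM in Con A 12 h and 74.6 to 117 CPM in Con A+MSC 12 h, those of endothelium 39.0 to 54.4 and 106 to 149.9 CPM, and those of stellate cells 83.3 to 119 and 170.4 to 261 CPM. Hepatocyte markers did not pass in either direction, with 33040 to 54110 CPM without MSC and 45880 to 55720 CPM with MSC. No marker of neutrophils, T and NK cells, B cells, cholangiocytes or erythroid cells passed. None of the markers was at 0 in a group, and their part in the AP-1 differences was not tested.

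At 6 h no member passed the test for MSC, where 0.0981% of all tested genes did (0.0771% lower). Fosb and Junb had an unadjusted p under 0.05, and the DESeq2 Wald test also called 0 of the 10. The log2 changes were negative for 9 of the 10, with a median of -0.34 against -0.01 over all genes. For Fos, Fosb, Junb and Atf3 all libraries with MSC lay below all without, which held for 8.34% of all genes.

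Junb had 359 to 402 CPM with MSC and 488 to 586 CPM without at 6 h, a change of -0.50 ± 0.16 (edgeR adjusted p = 0.248). Fosb had 1.94 to 2.18 CPM with MSC and 3.73 to 4.89 CPM without, a change of -1.0015 ± 0.45 (edgeR adjusted p = 0.439). Fos had -1.21 ± 0.56 (edgeR adjusted p = 0.459) and Atf3 -0.77 ± 0.53 (edgeR adjusted p = 0.665), with Con A 6 h libraries that were spread more widely than those with MSC. Jun, Jund, Fosl2, Mafk and Maff lay between -0.34 and -0.15 with overlapping libraries, and Fosl1 had 0.02 ± 0.63. Summed neutrophil markers were 137 to 225 CPM without MSC and 60.0 to 203 CPM with MSC at 6 h, and none of the 10 passed.

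The difference between the MSC effect at 12 h and that at 6 h was tested as an interaction, which is also the difference of the time change between the treatments. No member passed, where 0.126% of all genes did. Maff (-1.40 ± 0.33, edgeR adjusted p = 0.0814) and Jund (-1.03 ± 0.27, edgeR adjusted p = 0.097) came nearest and were the 2 members with an unadjusted p under 0.05. The DESeq2 Wald test called these 2 (adjusted p = 0.0078 and 0.0105). So a fall of Jun, Jund or Maff that passes at 12 h and not at 6 h was not shown by edgeR to differ between the times. The members' median difference was -0.39; adding the mitochondrial share as a covariate gave -0.01.

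Genes linked to AP-1 by function were counted from textbook lists. Other immediate early genes also fell over time: 21 of 23 tested fell without MSC and 20 of 23 with MSC, with medians of -2.20 and -2.28, where 24.8% and 20.2% of all tested genes fell. Ier3, a survival gene of stressed cells, fell by 4.75 ± 0.29 without MSC (edgeR adjusted p = 1.62e-06), and Btg2, an antiproliferative cofactor, fell by 4.23 ± 0.28 (edgeR adjusted p = 1.9e-06). With MSC at 12 h, where 1.79% of all genes fell, 5 of the 23 fell and none rose, including the stress sensors Gadd45g (-2.002 ± 0.20, edgeR adjusted p = 0.00184) and Gadd45b (-2.22 ± 0.37, edgeR adjusted p = 0.0124). The list's median there was -0.19. At 6 h none of the 23 passed, and the nearest was Ier2 at -1.20 ± 0.26 (edgeR adjusted p = 0.0909).

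Known AP-1 target genes mostly fell with time as well, 20 of 28 without MSC and 16 of 28 with MSC, while 2 rose in each (24.8% and 20.2% of all genes fell, and 24.4% and 20.6% rose). Without MSC the antioxidant enzyme gene Hmox1 fell by 3.62 ± 0.30 and the adhesion molecule gene Icam1 fell by 2.12 ± 0.18 (edgeR adjusted p = 6.13e-06 and 7.8e-06). With MSC at 12 h, 2 of the 28 rose and 1 fell, counts near the shares over all genes (2.29% rose and 1.79% fell). The list's median was 0.52. The gene that fell was the integrin gene Itga2 (-2.23 ± 0.38, edgeR adjusted p = 0.0125). Those that rose were Tgfb1, encoding a cytokine (1.45 ± 0.26, edgeR adjusted p = 0.0157), and Cd44, encoding a hyaluronan receptor (1.29 ± 0.29, edgeR adjusted p = 0.0317).

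Upstream of AP-1, MAP kinase genes moved in both directions: 5 of 23 rose and 9 fell without MSC, and 4 rose and 10 fell with MSC, where 24.4% and 20.6% of all genes rose and 24.8% and 20.2% fell. The counts that rose were near the share over all genes. Map3k8, a kinase downstream of Toll-like receptors, fell by 2.66 ± 0.21 without MSC (edgeR adjusted p = 5.64e-06), and Rps6ka1, a kinase activated by ERK, rose by 1.89 ± 0.20 (edgeR adjusted p = 2.06e-05). None of the 23 passed for MSC at 12 h, a count near the shares over all genes (1.79% fell and 2.29% rose). MAP kinase phosphatases, which switch these kinases off, fell for 8 of 11 tested genes without MSC and 7 of 11 with MSC, and 1 of the 11 rose in each. Dusp8 fell with MSC at 12 h, from 4.73 ± 1.56 to 0.986 ± 0.343 CPM (-2.24 ± 0.34, edgeR adjusted p = 0.00734), and was the only one of the 11 to pass there. Of serum response factor and its cofactors, 4 of 7 tested fell with time in each treatment, among them Srf itself (-1.12 ± 0.15 without MSC, edgeR adjusted p = 0.000117). With MSC 1 of the 7 rose with time, Elk3 (2.35 ± 0.49, edgeR adjusted p = 0.00234), and without MSC none rose.

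Of other basic leucine zipper genes, many of which can pair with the members, 9 of 21 fell and 2 rose with time, both with and without MSC (24.8% of all genes fell and 24.4% rose without MSC, and 20.2% fell and 20.6% rose with MSC). Bach1, a partner of the small MAFs that represses antioxidant genes, fell by 2.67 ± 0.26 without MSC (edgeR adjusted p = 1.21e-05). Atf5, an ATF gene of the stress response, rose by 1.66 ± 0.24 (edgeR adjusted p = 0.000166), and Nfe2l2, encoding NRF2, fell by 1.83 ± 0.26 (edgeR adjusted p = 0.000172). With MSC at 12 h, where 1.79% of all genes fell, the acute phase regulators Cebpb (-0.999 ± 0.20, edgeR adjusted p = 0.0237) and Cebpd (-0.93 ± 0.21, edgeR adjusted p = 0.0337) fell and the other 19 did not pass. Targets of NRF2 and the small MAFs fell for 9 of 21 genes without MSC and 12 of 21 with MSC. With MSC at 12 h 1 of the 21 fell, a count near the share over all genes, the ferritin light chain gene Ftl1 (-0.83 ± 0.20, edgeR adjusted p = 0.0422).

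**Figure D5:**
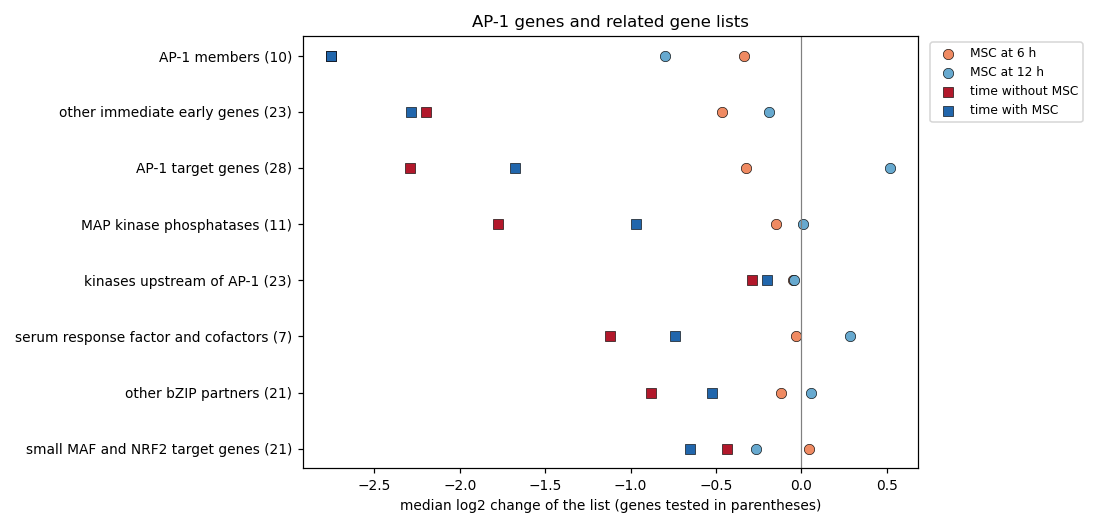
Median log2 change of the AP-1 genes and of 7 related gene lists in 4 comparisons; circles are Con A+MSC against Con A, squares are 12 h against 6 h, and the number of tested genes is in parentheses. The AP-1 squares for the 2 time comparisons lie on top of each other at -2.75 and -2.76, and at 12 h the MSC circle lies at -0.80 for the AP-1 genes and at 0.52 for their target genes.

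Over the 12 libraries the members followed each other closely: the 45 pairs had a median Pearson r of 0.945 (0.735 to 0.989) in log2 CPM. Most of that likeness lay between the groups, since deviations from the group means gave a median r of 0.297 (-0.546 to 0.811). The libraries share their groups and time points, so these values are descriptions. Among 8586 other genes with at least 5 CPM, the pattern most like Jun was that of Ptpn2 (r = 0.995), followed by Bcl2l1 (0.992) and Btg2 (0.992). Atf3 was most like Bcl2l1 (0.991), Junb like Il17ra (0.992), Fosl2 like Nup98 (0.995) and Mafk like H3f3b (0.995). Maff was most like Hcar2 (0.993), Fosb like Sec24b (0.985), Fosl1 like Serpina6 (0.982) and Fos like Gjb2 (0.959). Jund was most like Wsb1 (0.981) and next like Cebpd (0.975), the bZIP gene that also fell with MSC at 12 h.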

How the data were processed

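RNA of mouse liver was measured by poly(A) RNA sequencing in 12 libraries. The deposited tables, 1 for each of the 4 groups, hold whole-number counts per gene, read as raw counts. Per the submitters' processing notes, the tools were StringTie 2.1.2, Bowtie2 2.2.5 and HISAT2 2.0.4, with the genome GRCm39; which program counted, with what annotation and whether by strand, is not given in the sources used here. Here, 1 edgeR 4.0.16 quasi-likelihood fit (R 4.3.3) with a mean per group (8 residual degrees of freedom), TMM factors and filterByExpr by group gave two-sided tests of 5 comparisons, with Benjamini-Hochberg adjustment over the 14275 tested genes and a threshold of 0.05. SEs are the absolute log2 change over the root of F. CPM use TMM factors; intervals from 3 counts cover counting error only. Alternatives were DESeq2 1.42.0 (Wald test and size factors), total count and upper quartile scaling, no filter, only the groups compared, a replicate block, the mitochondrial share as a covariate, and leaving out each library. The procedure was tested on simulated data. Within each group no library was a duplicate of another (chi-square per degree of freedom of 42.6 or more). Libraries of different groups were not compared in this way.

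The members, gene lists and markers were chosen with earlier results of these data known. A gene of the AP-1 target list is not reported here and was left out of that list's counts. By rule, all members were named; from each other list up to 4 genes with the smallest adjusted p in the comparison at hand; and for each member up to 3 genes with the highest Pearson r in log2 CPM (prior count 2) among named genes of at least 5 CPM. Exon lengths and overlaps are from GENCODE M21 (GRCm38) and promoters from RefSeq (GRCm38.p6), both matched by symbol.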

Additional observations from a re-analysis of the deposited data

How the results depend on the processing

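The counts of 10 members that fell with time were 10 in all 15 alternatives with MSC and in 15 of 16 without MSC, where scaling by total count without mitochondrial genes gave 9. The count of 0 for MSC at 6 h stayed at 0 in all 15. For MSC at 12 h the count of 3 was 5 with the DESeq2 Wald test, 1 with only the groups compared, 1 with replicate 1 alone for Con A 12 h, and 1 to 4 when 1 library was left out (1 without Con A+MSC 12 h replicate 3). For the difference of the MSC effect it was 2 with the DESeq2 Wald test and 0 in the other 20 alternatives. Deviations of same-numbered libraries from their group means had correlations of -0.226 to 0.13 across genes. Differently numbered libraries were not compared in this way, so the values cannot tell whether the numbers pair the samples. With the replicate block the count for MSC at 12 h was 2 (Jun had an edgeR adjusted p of 0.0581). The counts of the other comparisons did not change with that block.

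Values that turned sign did so for members that did not pass. The cause was not tested. With the mitochondrial share as a covariate, log2 changes turned for Fosl1 at 6 h (-0.12) and for Fos (0.46), Fosb (0.10) and Fosl1 (0.048) at 12 h, and the difference of the MSC effect turned for Fosl1 (0.17), Atf3 (0.64) and Mafk (0.065). With replicate 1 alone for Con A 12 h they turned for Fos (0.64) and Fosl1 (0.0675) at 12 h and for the difference of Fosl1 (0.0455), Atf3 (0.66) and Mafk (0.039). With total counts, Fos at 12 h (0.19) and the differences of Fosl2 (0.16), Junb (0.14) and Mafk (0.21) turned. With total counts without mitochondrial genes, the same 4 were 0.0097, 8e-04, 0.0081 and 0.0485. Leaving out 1 library gave sign changes for Fosl1 at 6 h (-0.23 to 0.70), Fos at 12 h (-0.71 to 0.33), Fosb at 12 h (-0.69 to 0.30) and the differences of Junb (-0.22 to 0.0375) and Mafk (-0.22 to 0.0753). Depth limits Fosb and Fosl1 at 12 h, where libraries had 0 to 15 counts.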
